A study of Rattus norvegicus with 6 samples.

Results

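Txnip encodes the thioredoxin-interacting protein, an α-arrestin that binds reduced thioredoxin and is regarded as a pro-apoptotic protein of the pancreatic β-cell. It was examined here with 6 genes tied to it by family or function. Arrdc3 and Arrdc4 encode other α-arrestins. Txn1 and Txn2 encode the cytosolic and the mitochondrial thioredoxin, small proteins that reduce disulfides in other proteins. Mlxipl encodes ChREBP and Mlxip encodes MondoA, the glucose-responsive transcription factors that act on the Txnip promoter. The genes were chosen by name, and each of the 7 had at least 1 probeset that mapped to a single symbol, so that 9 probesets stood for 7 of the 12603 genes measured.

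Txnip mRNA is known to rise with glucose through ChREBP and MondoA, which bind paired E-boxes of the core CACGTG. In ER-stressed β-cells it has been reported downstream of both PERK and IRE1. For PERK the reported route runs through the transcription factor ATF5, and for IRE1 through miR-17, a microRNA that lowers Txnip mRNA and is itself reduced when IRE1 is active. Raised Txnip has in turn been reported to increase miR-204, which acts on the mRNA of the insulin gene activator MafA. This is background, and neither microRNA was measured here.

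The arrays came from 1 clone of INS-1, a rat insulinoma line used as a β-cell model, in which doxycycline (Dox) switches on a GFP fusion of insulin 2 bearing the Akita substitution C96Y. One group was left untreated, another received Dox at 4 μg/ml per the labels (the paper's methods state a lower dose) and the last received the same Dox with 5 μM 4μ8c, spelled 4u8c in the labels, which blocks RNA cleavage by IRE1, all for 48 h. Every culture was kept in 11.1 mM glucose, a setting that matters for a glucose-regulated gene, and in 55 μM β-mercaptoethanol, a thiol reductant. Each of 2 independent experiments gave 1 array per group, 6 in all. Since no array had Dox without the mutant, a response to the drug and a response to mutant proinsulin cannot be told apart. The paper lists 4μ8c alone among its treatments, but none of the 6 arrays had it. An effect of the inhibitor that does not depend on Dox therefore cannot be separated in these values. The paper states that the inhibitor alone caused no expression change past its fold threshold, which these arrays cannot check.

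The deposited values were log2 values, centred probeset by probeset and separately in each experiment. A value of 0 marks the middle of the 3 arrays in experiment 1, whereas in experiment 2 the middle of the 3 arrays was at 0 for 0.836% of probesets, so that values compare only within an experiment. Neither the level of a gene nor a comparison of levels between genes can be read from them, and the β-cell identity of the line could not be checked by marker levels. In experiment 1, 57.2% of all probesets were exactly 0 on 2 or 3 of the 3 arrays, against 0.416% in experiment 2. A difference of exactly 0 in experiment 1 is thus a tie in the deposited values and not a measured equality. Dox replicate 2 stood apart, with an SD of 0.18 over all probesets, against 0.05 to 0.12 on the other arrays. The gap between its 5′ and 3′ spike-in probesets also changed by -0.65 (log2, against untreated), against -0.26 to 0.10 on the other treated arrays. As a check of the treatments, the XBP1 target Dnajb9 was 1.25 higher with Dox than untreated (log2, SE 0.10, limma adjusted p = 0.00240), and Dox+4μ8c minus Dox was -1.05 (adjusted p = 0.0129). The chaperone gene Hspa5 was 0.70 higher with Dox (adjusted p = 0.00926) and was at -0.04 for Dox+4μ8c minus Dox (adjusted p = 0.900).

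The mature sequences of the microRNAs reported on either side of Txnip are shown because they name the proposed links between IRE1, Txnip and MafA. Both come from RefSeq on the build GRCr8, on the + strand, and capitals mark the seed, bases 2 to 8, which differs between them.
rno-miR-17-5p, chr15:98587861-98587883: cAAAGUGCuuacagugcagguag
rno-miR-204-5p, chr1:229743493-229743514: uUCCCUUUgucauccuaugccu

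Promoter sequences in the RefSeq table (GRCr8) were held for 6 of the 7 genes, all but Txnip. The 250 bases before the gene start of Arrdc4 and Arrdc3 are shown, since Arrdc4 is a known glucose-responsive relative of Txnip and Arrdc3 is the other measured relative among the 7. Capitals mark CACGTG, which reads the same on both strands.
Arrdc4, chr1:131793426-131793675, - strand: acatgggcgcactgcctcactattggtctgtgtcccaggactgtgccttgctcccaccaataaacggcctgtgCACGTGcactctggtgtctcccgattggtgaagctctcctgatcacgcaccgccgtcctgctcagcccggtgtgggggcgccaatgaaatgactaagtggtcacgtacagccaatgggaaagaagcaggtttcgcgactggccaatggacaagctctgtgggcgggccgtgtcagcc
Arrdc3, chr2:12872952-12873201, + strand: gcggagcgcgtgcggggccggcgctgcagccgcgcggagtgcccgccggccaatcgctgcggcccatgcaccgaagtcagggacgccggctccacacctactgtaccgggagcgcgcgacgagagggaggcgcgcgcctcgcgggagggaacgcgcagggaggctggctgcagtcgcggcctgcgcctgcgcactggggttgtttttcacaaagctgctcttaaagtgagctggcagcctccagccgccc
The Arrdc4 window held 1 CACGTG, beginning at -177 from the gene start, and 6 copies of CCAAT counted on both strands. None of the other 5 windows held CACGTG, and CCAAT was found 0 to 2 times in each. Of 27457 rat promoters of the same length, 5.79% held CACGTG and 34.3% held CCAAT. These are descriptions of the letters in the windows.

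Txnip rose with Dox. In these bulk RNA samples, fewer cells of a type and less RNA per cell cannot be told apart. In experiment 1 its centred log2 value was -0.18 in untreated cells, 0.09 with Dox and 0.00 with Dox+4μ8c, and in experiment 2 it was -0.10, 0.17 and 0.10 in the same order. In both experiments the untreated array was the lowest and the Dox array the highest, with the inhibitor array between them. The rise with Dox over untreated cells was 0.28 and 0.27 in experiments 1 and 2, which gave a mean log2 difference of 0.27 (SE 0.05, n = 2 per group, limma adjusted p = 0.0219), or 1.21 fold with a 95% confidence interval of 1.12 to 1.30. Of all genes, 4.21% had a larger rise. Txnip was the one member of 7 to pass the test with Dox, where 6.43% of all genes passed in either direction, 4.42% as higher and 2.01% as lower. The call depended on the setting. Dropping the replicate block cannot change the log2 difference in this balanced design, and the adjusted p was then 0.0576. After quantile normalization of the 6 arrays the difference was 0.21 (adjusted p = 0.127). With 1 untreated or Dox array left out it was 0.27 to 0.28, and leaving out a Dox+4μ8c array cannot change it. The adjusted p was 0.115 and 0.147 without untreated replicates 1 and 2, 0.0772 without either Dox+4μ8c array, 0.0316 without Dox replicate 1 and 0.0495 without Dox replicate 2.

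With 4μ8c, Txnip lay between the other groups. The difference between Dox+4μ8c and Dox was -0.09 in experiment 1 and -0.07 in experiment 2, with a mean of -0.08 (SE 0.05, adjusted p = 0.568). Its 95% interval ran from -0.19 to 0.03, beside a rise with Dox of 0.27. Against untreated cells the Dox+4μ8c arrays were higher by 0.18 and 0.20, with a mean of 0.19 (SE 0.05, adjusted p = 0.108). Expressed as a share, 65.5% of the log2 rise with Dox was present with Dox+4μ8c in experiment 1 and 73.1% in experiment 2. Neither difference passed the test in any of the settings tried, where the adjusted p ranged from 0.358 to 1.00 against Dox and from 0.0613 to 0.680 against untreated. Txnip was read by 1 probeset, whose values were not tied in experiment 1. By qPCR under the same treatments, the paper reports that Txnip was induced with the mutant and reduced by the inhibitor.

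**Figure D1:**
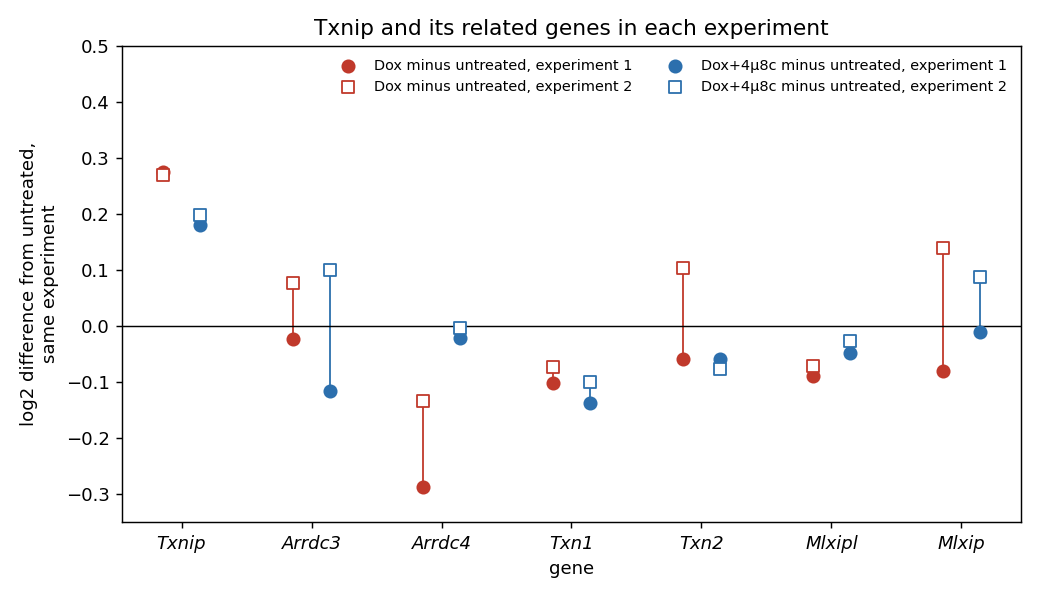
Log2 difference of each gene from the untreated array of the same experiment, for Dox (red) and Dox+4μ8c (blue), with circles for experiment 1 and squares for experiment 2 and a line joining the pair. Txnip is above 0 in all 4 differences, from 0.18 to 0.28, and Arrdc4 is at -0.29 and -0.13 with Dox and at -0.02 and -0.00 with Dox+4μ8c.

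Arrdc4, the α-arrestin most often described beside Txnip as a ChREBP and MondoA target, had the opposite sign to Txnip with Dox. Its centred log2 values were 0.02 in untreated cells, -0.27 with Dox and 0.00 with Dox+4μ8c in experiment 1, and 0.00, -0.13 and -0.00 in experiment 2. The Dox array was the lowest in both experiments, and the other arrays of each experiment lay within 0.02 of one another. Dox against untreated gave -0.21 (SE 0.06, 95% interval -0.35 to -0.07), with an unadjusted p of 0.00911 and an adjusted p of 0.0923, which did not pass. Dox+4μ8c against Dox gave 0.20 (SE 0.06, interval 0.06 to 0.33, adjusted p = 0.216), and Dox+4μ8c against untreated gave -0.01 (SE 0.06, adjusted p = 0.939). Without Dox replicate 2 the difference with Dox was -0.28 and passed (adjusted p = 0.0475), and it did not pass in any other setting. The difference between the responses of Txnip and Arrdc4 was not itself tested.

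Arrdc3, an α-arrestin known from the trafficking of β-adrenergic receptors, showed no common direction. With Dox it differed from untreated cells by -0.02 in experiment 1 and 0.08 in experiment 2 (mean 0.03, SE 0.06, adjusted p = 0.843), and with Dox+4μ8c by -0.12 and 0.10 (mean -0.01, adjusted p = 0.968). Its probesets disagreed. With Dox, one was at -0.07 and 0.26 in experiments 1 and 2, and the other at 0.02 and -0.11. The gene value is therefore a mean of readings that differed in sign within each experiment.

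Neither thioredoxin passed the test in any comparison. Txn1 was lower than in untreated cells on every treated array, by -0.10 and -0.07 with Dox and by -0.14 and -0.10 with Dox+4μ8c in experiments 1 and 2. The fitted differences were -0.09 (SE 0.05, adjusted p = 0.361) and -0.12 (SE 0.05, adjusted p = 0.291) and did not pass. The larger of these corresponds to 0.921 of the untreated signal. Txn2 was at -0.06 and 0.10 with Dox and at -0.06 and -0.08 with Dox+4μ8c. In experiment 1 its Dox and Dox+4μ8c values were tied at 0, so that its difference between these groups came from experiment 2 (-0.18). None of the Txn2 comparisons passed, with adjusted p of 0.632 to 0.864.

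The Mondo transcription factors also did not pass in any comparison. Mlxipl, or ChREBP, was lower than untreated by 0.09 and 0.07 with Dox, a difference of -0.08 (SE 0.05, 95% interval -0.19 to 0.03, adjusted p = 0.392), and by 0.05 and 0.03 with Dox+4μ8c, a difference of -0.04 (adjusted p = 0.747). Between Dox+4μ8c and Dox it was 0.04 higher in each experiment (adjusted p = 0.762). Mlxip, or MondoA, was at -0.08 and 0.14 with Dox (mean 0.03, adjusted p = 0.829). One of its probesets was exactly 0 on all 3 arrays of experiment 1, and the other was at -0.16 with Dox there and at 0.17 in experiment 2.

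**Figure D2:**
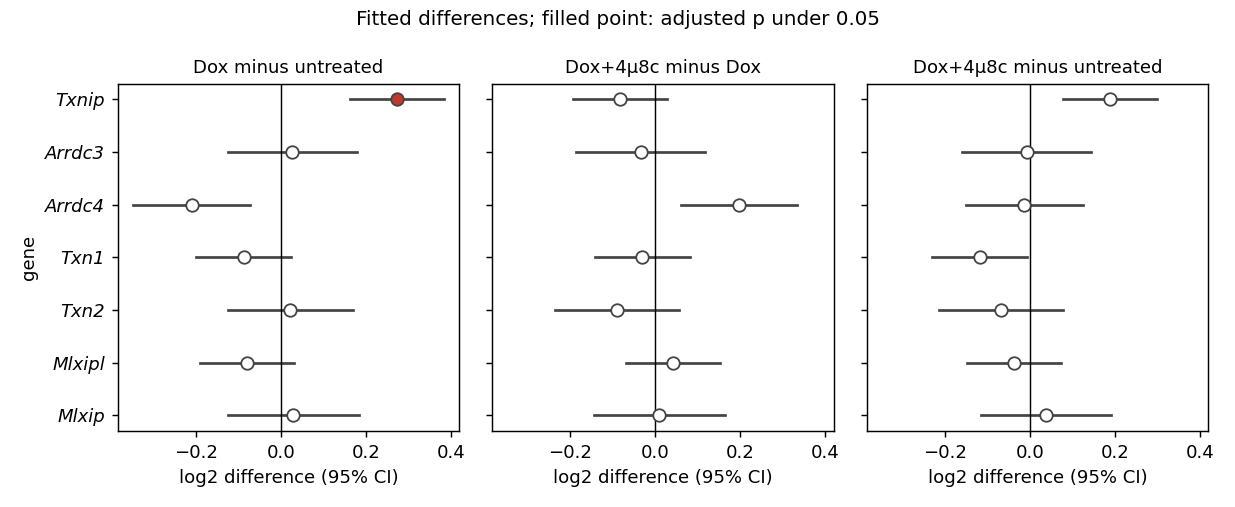
Fitted log2 difference of each gene in the 3 comparisons, with unadjusted 95% confidence intervals from limma (2 arrays per group), and a filled point where the adjusted p was under 0.05. Txnip with Dox, at 0.27, is the one filled point, and Arrdc4 lies below 0 with Dox (-0.21) and above 0 for Dox+4μ8c minus Dox (0.20).

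Across the 7 genes the median log2 difference was 0.02 with Dox against untreated, -0.03 with Dox+4μ8c against Dox and -0.01 with Dox+4μ8c against untreated, beside medians of 0.01, -0.01 and -0.00 over all genes. The counts passing the test were 1, 0 and 0, and at an unadjusted p under 0.05 they were 2 (Txnip higher, Arrdc4 lower), 1 (Arrdc4 higher) and 2 (Txnip higher, Txn1 lower). At that unadjusted threshold, 19.6% of all genes passed with Dox (11.2% higher, 8.44% lower), 11.2% between Dox+4μ8c and Dox (2.79% higher, 8.44% lower) and 15.4% between Dox+4μ8c and untreated (6.27% higher, 9.15% lower). After adjustment, 1.79% of all genes passed between Dox+4μ8c and Dox (0.175% higher, 1.61% lower), and 2.30% between Dox+4μ8c and untreated (1.17% higher, 1.13% lower). Txnip, Arrdc4, Txn1 and Mlxipl kept 1 sign in both experiments for every comparison, whereas Arrdc3 and Mlxip changed sign between the experiments in all 3.

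Among the enzymes that work with thioredoxin, 1 passed the test with Dox, where 6.43% of all genes passed. Of 19 listed genes of the thioredoxin system, 18 were measured, with a median log2 difference of -0.02 with Dox, and 1 was higher and 0 lower past the limma test (2 and 2 at an unadjusted p under 0.05, where 11.2% of all genes were higher and 8.44% lower). The gene that rose was Msrb2, a mitochondrial methionine sulfoxide reductase that draws its electrons from thioredoxin. It was higher by 0.35 and 0.36 with Dox in the 2 experiments (mean 0.36, SE 0.05, adjusted p = 0.0132) and by 0.33 and 0.24 with Dox+4μ8c (mean 0.29, adjusted p = 0.04997). The call with Dox was lost without the replicate block (adjusted p = 0.119), after quantile normalization (0.0634) and without untreated replicate 1 or 2 (0.0937 and 0.0783), and the call with Dox+4μ8c held in 4 of 13 settings. The thioredoxin reductases Txnrd1, Txnrd2 and Txnrd3 were at 0.03, -0.01 and -0.08 with Dox, and the 5 measured peroxiredoxins ranged from -0.08 (Prdx4) to 0.17 (Prdx6). Between Dox+4μ8c and Dox, 14 of the 18 genes were below 0, beside 57.9% of all genes, with a median of -0.07 against -0.01 over all genes. Of the 18, 0 passed the limma test (0 higher and 4 lower at an unadjusted p under 0.05, where 2.79% of all genes were higher and 8.44% lower). The reductases and peroxiredoxins are named here as families. Msrb3, another methionine sulfoxide reductase and the lowest of the list, named after its values were seen, was at -0.24 and -0.46 with Dox (mean -0.35, SE 0.10, adjusted p = 0.118).

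Of the 3 other α-arrestins listed, Arrdc1 and Arrdc2 were measured and did not pass in any comparison, at -0.07 and 0.08 with Dox. Of 11 listed partners of Txnip and thioredoxin, 7 were measured. Ddit4, which encodes REDD1, an mTORC1 inhibitor reported to bind Txnip, rose with Dox by 0.65 and 0.51 in the 2 experiments (mean 0.58, SE 0.07, adjusted p = 0.00627, and 0.0876 without the replicate block). It was still higher than untreated with Dox+4μ8c, by 0.42 (adjusted p = 0.0363), a call lost without the replicate block (0.236), after quantile normalization (0.0583) and without any of the untreated and Dox+4μ8c arrays (0.0702 to 0.309). Pycard, which encodes the inflammasome adaptor ASC, was lower than untreated with Dox+4μ8c, at -0.36 and -0.35 (mean -0.36, SE 0.05, adjusted p = 0.0254), and at -0.15 with Dox (adjusted p = 0.150). That call was also lost without the replicate block (0.0769) and without any of the untreated and Dox+4μ8c arrays (0.124 to 0.288).

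In the Mondo and Max network, the set of dimerizing factors that share the CACGTG element, 3 of 10 genes passed with Dox, 2 of them higher. Over all genes 6.43% passed, 4.42% as higher and 2.01% as lower. The list median was 0.14, beside 0.01 over all genes. Myc rose by 0.61 (SE 0.05, adjusted p = 0.00265). Mnt, a repressor that pairs with Max or Mlx, rose by 0.25 (SE 0.05, adjusted p = 0.0286), and Mxd3, another repressor of this group, fell by 0.23 on the log2 scale (SE 0.05, adjusted p = 0.0412). Mlx, the obligate partner of ChREBP and MondoA, was at -0.03 (adjusted p = 0.815). Without the replicate block Myc and Mnt did not pass (0.0775 and 0.0581). The Myc call held with each array left out, whereas those of Mnt and Mxd3 were lost in 5 and 6 of the 6 fits that left out 1 array, Mnt passing only without Dox replicate 1. With Dox+4μ8c against untreated, Myc was at 0.66 (adjusted p = 0.00609) and Mxd3 at -0.33 (adjusted p = 0.0283). Those calls were lost without the replicate block (0.130 and 0.0769) and without either Dox+4μ8c array, and also without untreated replicate 1 (0.0505 and 0.154) and, for Mxd3, untreated replicate 2 (0.151).

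Of 15 listed genes that ChREBP activates in response to glucose, 13 were measured, and 0 passed the limma test in either direction in any of the 3 comparisons. At an unadjusted p under 0.05, 0 were higher and 2 lower with Dox, 1 and 1 between Dox+4μ8c and Dox, and 2 and 2 between Dox+4μ8c and untreated. The shares of all genes higher and lower at that threshold were 11.2% and 8.44%, 2.79% and 8.44%, and 6.27% and 9.15% in the same order. With Dox the list ran from -0.17 (Slc2a2, the β-cell glucose transporter) to 0.17 (Gpd1), with a median of 0.01 beside 0.01 over all genes. The pyruvate kinase gene Pklr, a classical ChREBP target, was at 0.03 (SE 0.05, adjusted p = 0.759), and Klf10 at -0.02 (adjusted p = 0.834). Slc2a2 and Gpd1 are named as the ends of the range, after their values were seen, and Pklr and Klf10 for their roles. Leaving out Dox replicate 1 gave 1 lower gene with Dox, and leaving out either Dox array gave 2 lower genes between Dox+4μ8c and untreated.

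**Figure D3:**
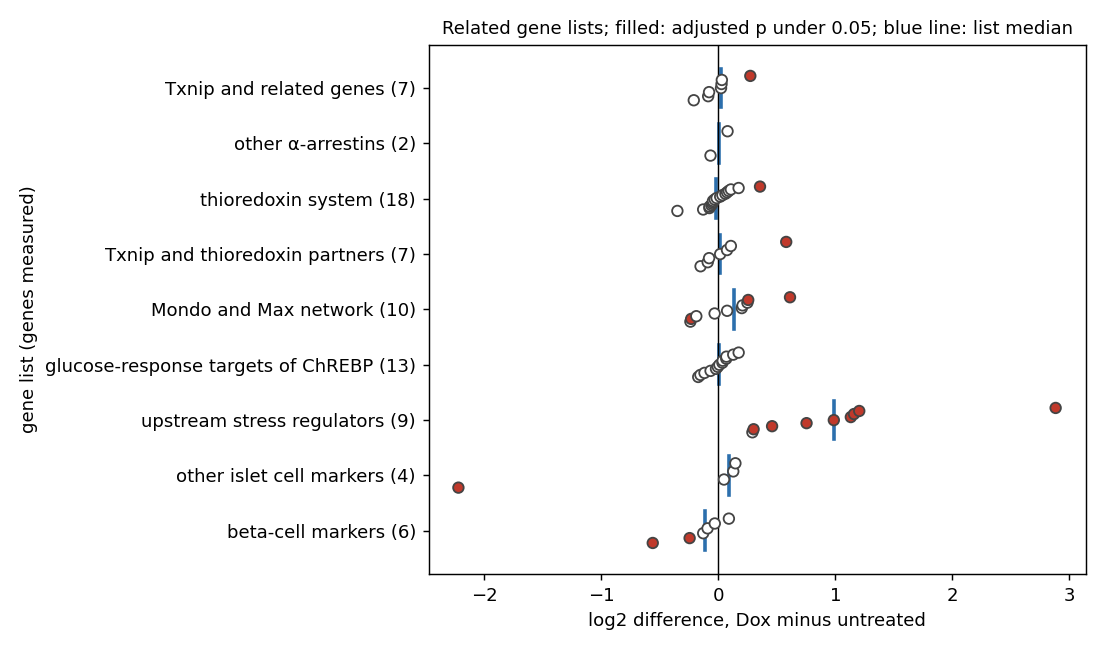
Log2 difference between Dox and untreated cells for each measured gene of the lists, with the number measured in brackets, filled points at an adjusted p under 0.05 and a blue line at the list median. The thioredoxin and ChREBP target lists centre on 0 (-0.02 and 0.01), while the list labelled upstream stress regulators has a median of 0.99.

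Most of the stress regulators placed upstream of Txnip rose with Dox. Of 10 listed, 9 were measured (Ern1 was not). All 9 were above 0 with Dox, beside 54.8% of all genes, and 8 passed the test as higher, beside 4.42%. The list median was 0.99, beside 0.01 over all genes. Trib3 rose by 2.88 (SE 0.09, adjusted p = 0.000162), the transcription factor Ddit3, or CHOP, by 1.20 (SE 0.07, adjusted p = 0.000999), Atf5 by 1.16 (SE 0.06, adjusted p = 0.000721) and Atf4 by 0.99 (SE 0.07, adjusted p = 0.00164). For CHOP this differs from the paper's qPCR, which found no significant effect of the mutant on its mRNA at 48 h. The reason for the difference was not tested. The smallest differences, named after their values were seen, were those of Xbp1 at 0.30 (95% interval 0.15 to 0.45, adjusted p = 0.0455) and Atf6 at 0.29 (interval 0.05 to 0.54, adjusted p = 0.179, not passing), beside 0.27 for Txnip. No difference from Txnip was tested. For Trib3, Ddit3, Atf5 and Atf4, Dox+4μ8c minus Dox was -0.08, -0.00, 0.10 and -0.16 and did not pass, with adjusted p of 0.425 to 0.991. The Trib3 difference was 0.04 in experiment 1 and -0.21 in experiment 2. By qPCR the paper reports that Trib3 was induced with the mutant and reduced by the inhibitor. Atf5, the factor reported to bind the Txnip promoter, was 1.26 above untreated with the inhibitor (adjusted p = 0.000790). Txnip was at 0.19 there and did not pass, and a link between these genes was not tested. Eif2ak3, which encodes PERK and is named after its values were seen, rose by 0.75 with Dox (adjusted p = 0.00433), and Dox+4μ8c minus Dox was -0.67 (SE 0.07, adjusted p = 0.0179). Without the replicate block 1 of the 9 passed with Dox (Eif2ak3, adjusted p = 0.0214), and Trib3, Ddit3, Atf5 and Atf4 did not, with adjusted p of 0.0510 to 0.0934. After quantile normalization 3 of the 9 passed (Trib3, Atf4 and Nupr1, the last named after its values were seen), while Atf5 (0.0524), Ddit3 (0.0549) and Eif2ak3 (0.0685) did not, and with 1 array left out 6 to 8 of the 9 passed. The Eif2ak3 difference between Dox+4μ8c and Dox did not pass without Dox+4μ8c replicate 1 or 2, on single probesets or after quantile normalization (0.166).

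Among β-cell genes, Mafa is reported to be lowered when Txnip is high, and it fell with Dox. Its centred log2 values were 0.00, -0.69 and 0.03 in untreated, Dox and Dox+4μ8c cells of experiment 1, and -0.04, -0.47 and 0.04 in experiment 2. The Dox array was far below the other arrays in both experiments. Dox against untreated gave -0.56 (SE 0.07, adjusted p = 0.0090) and Dox+4μ8c against Dox 0.62 (SE 0.07, adjusted p = 0.0189), while Dox+4μ8c against untreated gave 0.06 (adjusted p = 0.756). The first call was lost without untreated replicate 1, the second without Dox+4μ8c replicate 1 or 2 and on single probesets, and both after quantile normalization (0.210 and 0.282). Of the Txnip rise, 69.3% was present on the same Dox+4μ8c arrays, where Txnip against untreated did not pass (adjusted p = 0.108). Neither the contrast nor a link between the genes was tested. Of the 6 measured β-cell genes, Mafa and Iapp, islet amyloid polypeptide, passed as lower with Dox, where 2.01% of all genes did. Iapp was at -0.25 (SE 0.05, adjusted p = 0.0408), a call lost in most settings. Ins1 and Ins2 were at -0.03 and -0.13 and did not pass. Dox also switches on an insulin 2 fusion, and whether the Ins2 probeset reads its transcript was not checked. Pdx1 and Nkx6-1, the rest of the measured list, were at -0.09 and 0.09 and did not pass. Between Dox+4μ8c and Dox all 6 were above 0, beside 42.0% of all genes. Mafa was the 1 that passed there, beside 0.175% of all genes as higher. Of the 4 measured markers of other islet cells, the α-cell gene Gcg was at -2.22 with Dox (SE 0.10, adjusted p = 0.000721, and 0.0535 without the replicate block) and at 0.86 between Dox+4μ8c and Dox (adjusted p = 0.0210). The latter call was lost without the block (0.518), after quantile normalization, on single probesets and without either Dox+4μ8c array. Irx2, Ppy and Ghrl did not pass. The part of the Gcg change in the values of Txnip was not tested.

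The genes whose response came nearest to that of Txnip were Nfkbil1, Mnt, Shfl, Arhgap24 and Sacm1l. Likeness was the root mean square distance over 4 differences, Dox and Dox+4μ8c each against untreated in each experiment, and it was computed for the 12602 other genes. The distances were 0.019 (Nfkbil1), 0.019 (Mnt), 0.028 (Shfl), 0.0285 (Arhgap24) and 0.030 (Sacm1l) in log2 units. With Dox these genes differed from untreated cells by 0.25 to 0.29 and with Dox+4μ8c by 0.15 to 0.20. None of the 5 differences between Dox+4μ8c and Dox passed the test. The genes were chosen by likeness to Txnip in these same values, so the likeness follows from the choice and is no separate result. The distances rest on 6 arrays that share their untreated controls and are given as a description.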

How the data were processed

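RMA log2 values of 6 Affymetrix arrays (200 ng total RNA each, 25476 probesets) were deposited by the authors. RMA is named without a version in the submitters' notes, and the values are centred per probeset within each experiment. The median over the 3 arrays of experiment 1 was 0 for 100% of probesets. The values of 99.97% in experiment 2 allow a median of 0 over 4 arrays. That number was assumed, since the series holds 3 arrays of that experiment and all were used. Levels and detection are therefore not given, and the number of arrays limits the precision. Annotation was that of the platform, and 17978 probesets with 1 symbol were averaged to 12603 genes with no filter.

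Genes were tested with limma 3.58.1 (R 4.3.3; lmFit, eBayes, two-sided, 3 groups plus the experiment, 2 residual and 4.25 prior degrees of freedom), with Benjamini-Hochberg adjustment over all genes of a comparison and a threshold of 0.05. The experiment term follows the centring and the replicate numbers in the labels. Deviations of same-numbered arrays, which the centring alters, correlated over genes at 0.03, 0.10 and 0.03. The experiment term removes shifts common to an experiment. The p-values rest on how far group differences varied between the 2 experiments, with each gene's variance drawn toward that of all genes. The prior carried more degrees of freedom than the residuals, so a small SE, such as that of Txnip, rests largely on that shared variance. The members, lists and tests were chosen with earlier results of these data known. Up to 4 genes per list with the smallest adjusted p among those that passed, the 7 members, the 5 genes nearest to Txnip and 3 treatment checks (Dnajb9, Hspa5, Trib3) were named, and others are said to be named for their role or after their values were seen. Leaving out probesets tied in experiment 1 was an alternative chosen after seeing the data. The procedure was run on simulated data that lacked the ties and the centring of the deposited values, so that run cannot show their effect. Tables and plots used Python 3.11.15, pandas 2.3.3 and matplotlib 3.10.9.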

Additional observations from a re-analysis of the deposited data

How the results depend on the processing

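Txnip was higher with Dox in all 13 settings and passed in 7, and several of these settings cannot change its log2 difference. It did not pass without the replicate block (0.27), after quantile normalization (0.21) or without either untreated or either Dox+4μ8c array, and with 1 array left out its value ran from 0.27 to 0.28. The number of members passing with Dox was 0 without the replicate block and 0 after quantile normalization, and with 1 array left out it ran from 0 to 2. The replicate block changed no other call of a member. Replicate numbers mark the experiments, since the values were centred within them. Over all genes, 557 were higher and 253 lower with Dox, against 303 and 137 without the block and 119 and 44 after quantile normalization. For Dox+4μ8c against Dox, the 22 and 203 became 14 and 129 without the block, and 0 and 0 after quantile normalization, on single probesets or without either Dox+4μ8c array. For Dox+4μ8c against untreated, the 148 and 142 became 0 and 0 without the block. Without the tied probesets, an alternative chosen after seeing the data, 6792 genes were tested and 794 were higher and 456 lower with Dox. The causes were not tested.

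Signs that turned belonged to values that did not pass. Against untreated with Dox, quantile normalization gave -0.012 for Txn2 and -0.022 for Mlxip, and one Arrdc3 probeset gave -0.042. For Dox+4μ8c against Dox, median-centred arrays gave 0.010 for Ddit3, quantile normalization gave 0.12 for Trib3, 0.20 for Ddit3 and 0.0045 for Atf4, and single probesets gave -0.027 for Mlxip and 0.064 for Trib3. For Dox+4μ8c against untreated, the other Arrdc3 probeset gave 0.040. With 1 array left out, the differences with Dox ran from -0.053 to 0.11 (Arrdc3), -0.064 to 0.11 (Txn2) and -0.056 to 0.12 (Mlxip). Between Dox+4μ8c and Dox they ran from -0.12 to 0.049 (Arrdc3), -0.076 to 0.095 (Mlxip), -0.015 to 0.050 (Iapp), -0.24 to 0.075 (Trib3) and -0.083 to 0.077 (Ddit3). Between Dox+4μ8c and untreated they ran from -0.091 to 0.076 (Arrdc3), -0.056 to 0.030 (Arrdc4), -0.041 to 0.12 (Mlxip), -0.020 to 0.13 (Mafa) and -0.047 to 0.21 (Eif2ak3).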
